A study of Saccharomyces cerevisiae with 33 samples.

Results

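The genes described here encode the yeast phosphatidate phosphatases, the diacylglycerol kinase that runs the opposite reaction, and the protein phosphatase that switches on the main phosphatidate phosphatase. They were taken by name, and all 7 were measured: *PAH1* (YMR165C), *NEM1* (YHR004C), *SPO7* (YAL009W), *APP1* (YNL094W), *DPP1* (YDR284C), *LPP1* (YDR503C) and *DGK1* (YOR311C), out of 5449 *Saccharomyces cerevisiae* genes on the arrays. Each of them is read by 1 probe set, and all 7 stayed above the background level on all 33 arrays. The clearest signals came from the lipid phosphatase gene *DPP1*, which was higher under N-limitation than under C-limitation in 4 of the 5 strains and was low in the N-limited *ino2*Δ*ino4*Δ strain. *LPP1* was high on the C-limited *ino4*Δ arrays, and *PAH1* and *DGK1* moved in opposite directions between the phases of the oscillating *opi1*Δ cultures. Between those phases 45.4% of all genes changed, and the *PAH1* difference no longer passed under 5 of 17 other settings.

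Phosphatidate is the branch point of glycerolipid synthesis. It either becomes CDP-diacylglycerol, the source of phosphatidylinositol and phosphatidylserine, or it is dephosphorylated to diacylglycerol, the source of triacylglycerol and of the phospholipids made by the Kennedy pathway. In budding yeast phosphatidate in the endoplasmic reticulum membrane also holds the repressor Opi1 outside the nucleus, so that the activator Ino2-Ino4 can transcribe genes that carry the inositol-responsive element UASINO, such as *INO1*.

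The study asked how the level of *INO2* and *INO4* transcription affects lipid metabolism, using 33 Affymetrix arrays in 11 groups of 3. All strains were prototrophic *MAT*a haploids of the CEN.PK113-7D background, the mutants carried loxP-Kan-loxP cassettes in place of the deleted genes, and all were grown in aerobic chemostats on minimal medium that contained inositol and choline. Under N-limitation the groups were *opi1*Δ (no repressor), *ino2*Δ, *ino4*Δ, *ino2*Δ*ino4*Δ (no activator) and the reference strain. Under C-limitation the groups were *opi1*Δ sampled at maximum CO2 production, *opi1*Δ sampled at minimum CO2 production, *ino2*Δ, *ino4*Δ, *ino2*Δ*ino4*Δ and the reference strain, and the *opi1*Δ cultures oscillated, so those 2 groups are phases of an oscillation. The oscillation is a limit of this strain as a model of steady growth. In addition, the labels do not tie the arrays of one phase to those of the other, so the phases were not paired. Values are the log2 signals the authors deposited, for which an increase of 1 means a doubled signal. Levels of different genes are not compared, because each probe set has its own response.

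A gene is said to have risen or fallen where limma gave a Benjamini-Hochberg adjusted p below 0.01 over the 5449 genes of a comparison. Precision is limited by there being 3 arrays in each group. The study names biological replicates for the growth data of these chemostats. The labels do not say whether the replicate arrays came from those separate cultures, and if they did not, the p-values describe only the spread between these arrays. The mutants of one limitation were all compared with the same 3 reference arrays, so their differences are not independent of each other.

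Some arrays stand apart, and the called differences that rest on them are given with and without them. *OPI1* was at the background level of 5.47 on all *opi1*Δ arrays, and under N-limitation *INO2* and *INO4* were below it wherever the label says they were deleted. On 4 C-limited arrays they did not match the label: *INO4* was at background on *ino2*Δ replicates 2 and 3, *INO2* was at background on *ino4*Δ replicate 3, and *INO4* read 6.64 on *ino2*Δ*ino4*Δ replicate 1. These arrays are called by their labels throughout. A further 5 arrays, replicates 1 and 3 of *opi1*Δ at minimum CO2, replicates 1 and 3 of *ino2*Δ*ino4*Δ under N-limitation and replicate 1 of the N-limited reference, deviated from their group means in the same direction over all genes (pairwise r of the deviations between 0.21 and 0.77). Deviations within a group of 3 cancel out, so an outlying array makes the other 2 deviate alike. In *opi1*Δ at minimum CO2 replicates 1 and 3 were close (SD of their log2 differences 0.18), and replicate 2 lay apart from them (0.68 and 0.65). In N-limited *ino2*Δ*ino4*Δ these SDs were 0.27 for replicates 1 and 3, against 0.46 and 0.55 with replicate 2. Leaving out the 5 arrays thus keeps the array that lay apart as the only one in both groups. Among mating-type markers, none of the 6 a-cell markers was at background on all 3 arrays of a group. Their summed signal was 16242 to 19096 in N-limited *opi1*Δ against 11065 to 11929 in the reference. At maximum CO2 it was 5704 to 5864, and at minimum CO2 3292 to 4696, against 2052 to 2147 in the C-limited reference. Of these 6 markers, 2, 6 and 2 passed as higher in those *opi1*Δ groups, where 2.53%, 31.1% and 7.73% of all genes were called. Of 4 alpha-cell markers, MF(ALPHA)2 was at background on all arrays, while the summed signal of the list was 2813 to 3107 on N-limited *opi1*Δ arrays, against 325 to 399 on the N-limited reference arrays. Under C-limitation that sum was 840 to 861 in *opi1*Δ at maximum CO2 and 359 to 451 at minimum CO2, against 234 to 248 in the reference. MF(ALPHA)1 was the 1 marker of the 4 that passed as higher in N-limited *opi1*Δ and at maximum CO2, and MF(ALPHA)1 and SAG1 passed as higher at minimum CO2. In N-limited *opi1*Δ MF(ALPHA)1 made most of the sum, with a mean of 11.40 against 7.02 in the reference. STE3 (5.64 against 5.54) and SAG1 (7.13 against 7.21) did not pass there. The part of these marker differences in the *opi1*Δ values below was not tested.

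Across 19 comparisons the 7 genes gave 133 tests, of which 16 passed. In C-limited *opi1*Δ at maximum CO2 against the reference, 3 of the 7 changed (31.1% of all genes did), and at minimum CO2 1 of the 7 did (7.73% of all genes). In C-limited *ino4*Δ 1 of the 7 changed (13.4% of all genes), and in N-limited *ino2*Δ*ino4*Δ 1 of the 7 changed (16.1% of all genes). Between N- and C-limitation, 1 of the 7 changed in the reference strain (23.3% of all genes), 2 of the 7 in *opi1*Δ with the minimum CO2 phase as the C-limited group (27.7%), 2 of the 7 in *ino2*Δ (21.3%) and 2 of the 7 in *ino4*Δ (22.3%). Between the maximum and the minimum CO2 phase 2 of the 7 changed, while 45.4% of all genes did. With so few genes these counts do not set the 7 apart from all genes, and the results below concern single genes.

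Limma called 0 of the 7 in the 6 remaining comparisons of 2 groups, and the 4 comparisons of effects, with the last of the 16 calls, are given below. The 6 were C-limited *ino2*Δ (0.826% of all genes called, 1 of the 7 at an unadjusted p below 0.05), C-limited *ino2*Δ*ino4*Δ (0.569%, 0 of the 7), N-limited *opi1*Δ (2.53%, 2 of the 7), N-limited *ino2*Δ (0.606%, 0 of the 7), N-limited *ino4*Δ (0.551%, 0 of the 7) and the N-limited against the C-limited *ino2*Δ*ino4*Δ strain (25.8%, 4 of the 7). The t-test named in the study's methods, with the same adjustment, also called 0 of the 7 in each of them. The median difference of the 7 genes was -0.36 for *ino2*Δ*ino4*Δ between the limitations, against 0.05 for all genes, and -0.22 for C-limited *opi1*Δ at maximum CO2 minus the reference, against 0.08 for all genes.

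**Figure D1:**
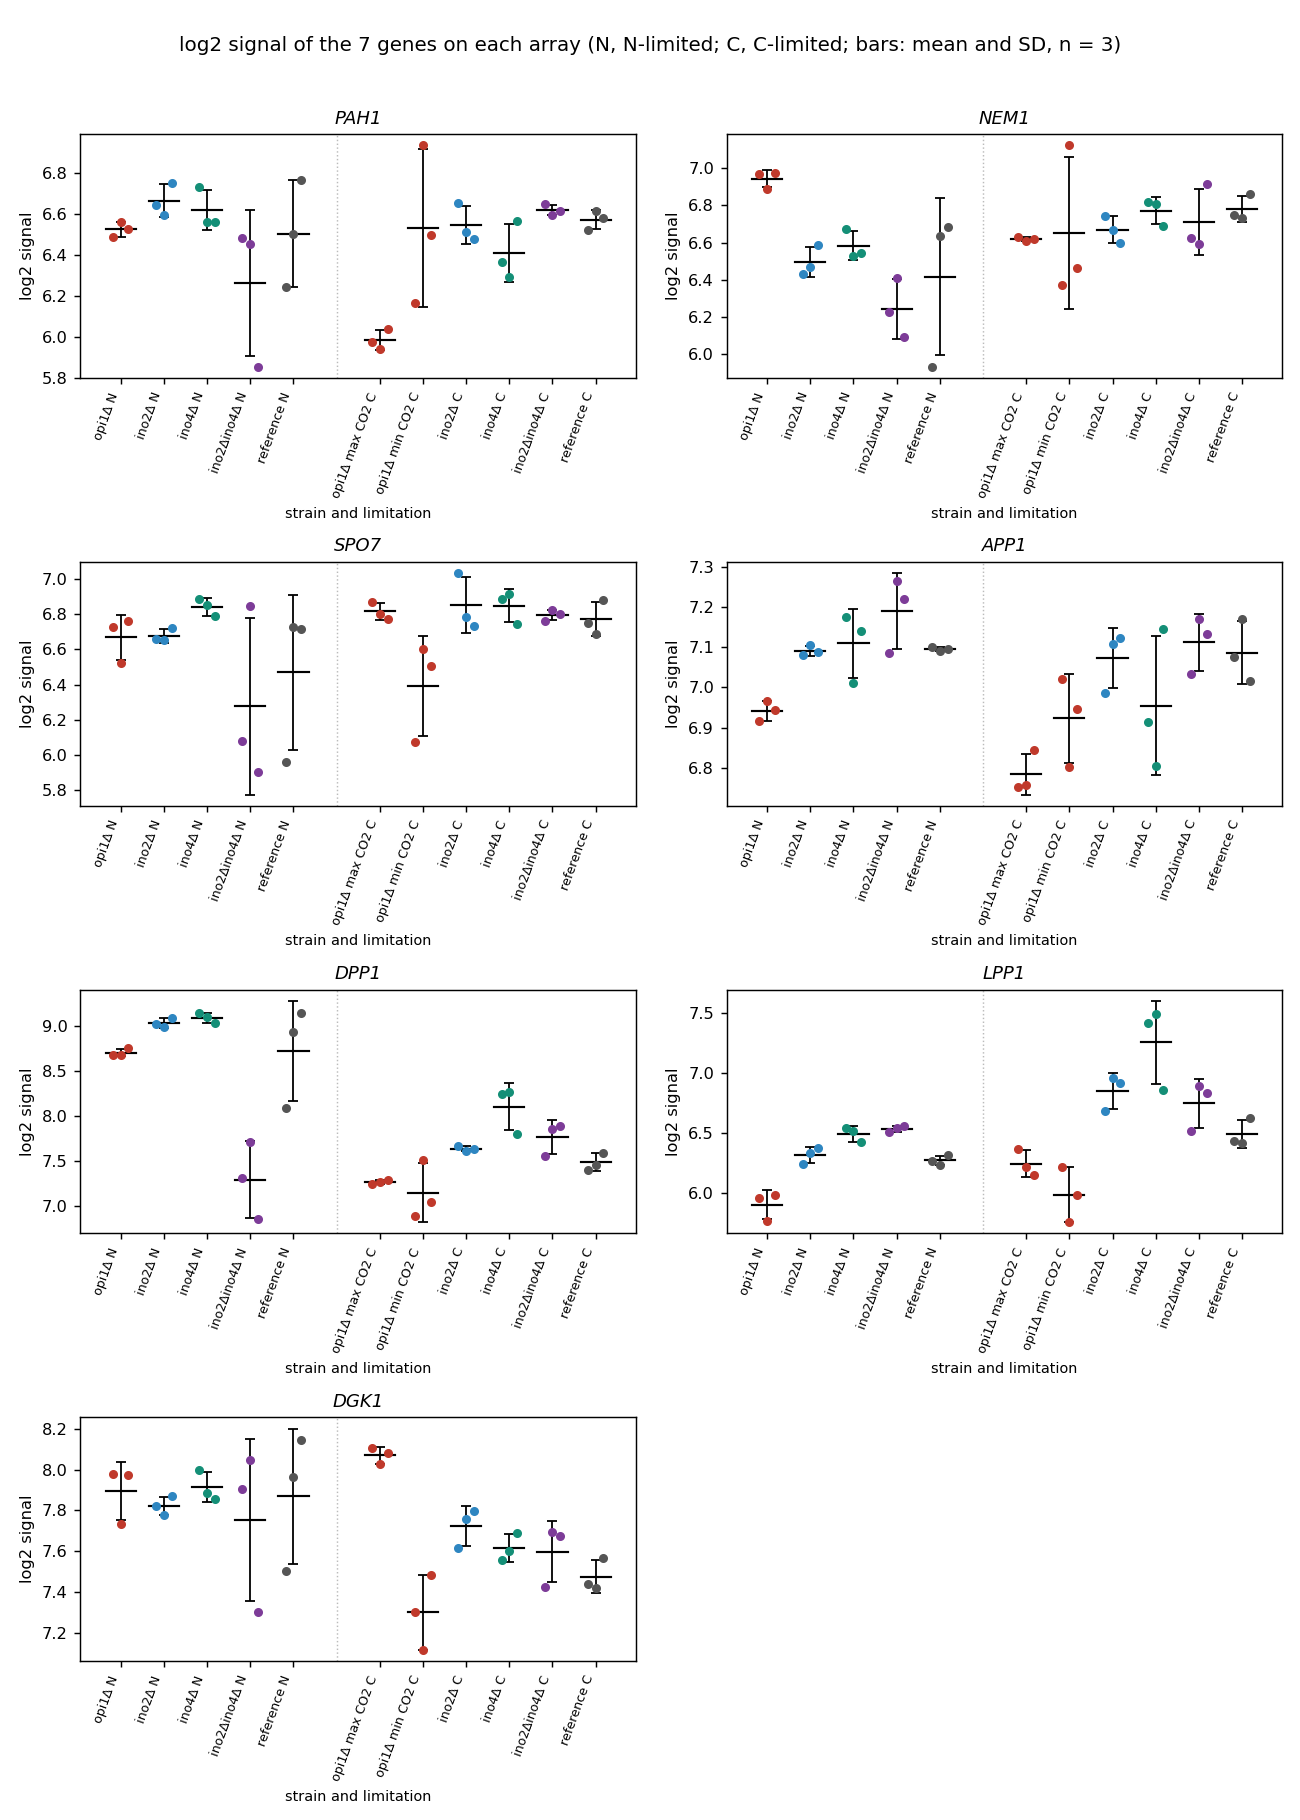
Log2 signal of the 7 genes on each array. Each panel is 1 gene, with strains under N-limitation on the left and under C-limitation on the right of the dotted line; points are arrays, and black bars are the mean and SD of 3 arrays. *DPP1* separates the limitations in all strains but *ino2*Δ*ino4*Δ, *LPP1* is high in the C-limited *ino* strains, and *PAH1* and *DGK1* differ between the *opi1*Δ phases.

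**Figure D2:**
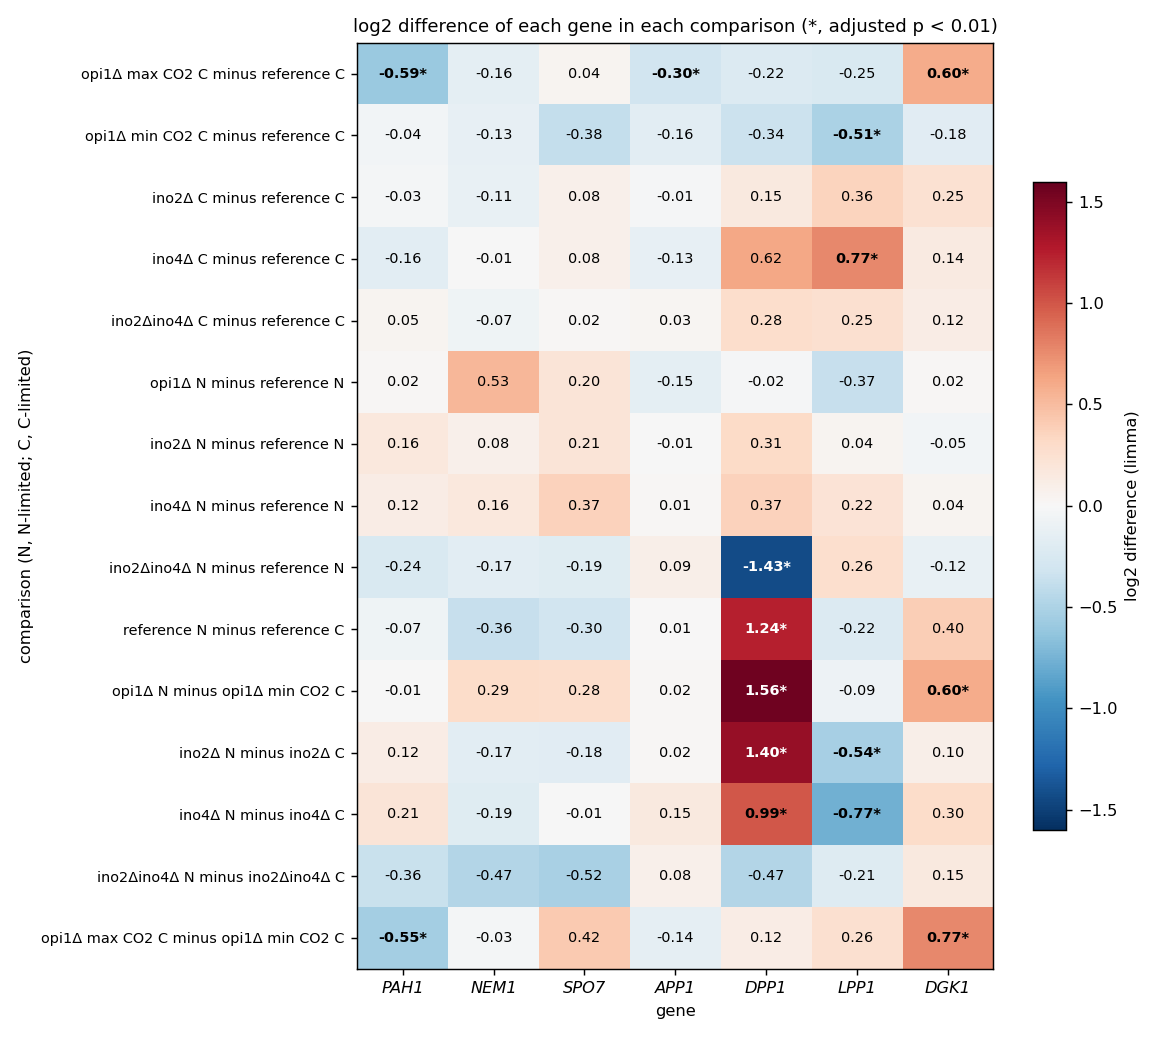
Log2 difference of each gene (columns) in each of the 15 comparisons of 2 groups (lines), from the limma fit of all arrays, with red for higher and blue for lower in the group named first. Asterisks and bold type mark an adjusted p below 0.01. *DPP1* holds the strongest colours, from -1.43 to 1.56, while the *NEM1* and *SPO7* columns hold no asterisk.

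*PAH1* encodes the Mg2+-dependent phosphatidate phosphatase, the yeast lipin, which supplies most of the diacylglycerol for triacylglycerol synthesis. Its signal was low on the *opi1*Δ arrays at maximum CO2 and passed no test outside them. It read 5.97, 5.94 and 6.04 on the *opi1*Δ arrays at maximum CO2, against 6.52, 6.62 and 6.58 on the C-limited reference arrays. The groups did not overlap, and the difference was -0.59 ± 0.15 (SE, adjusted p = 0.00279), a signal 0.665 times that of the reference. At minimum CO2 the *opi1*Δ arrays read 6.16, 6.94 and 6.50. All 3 lay above the arrays at maximum CO2, and the difference between maximum and minimum CO2 was -0.55 ± 0.15 (adjusted p = 0.00349).

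The minimum CO2 group was widely spread for *PAH1* (SD 0.39), and its replicate 2 was the highest of all 33 arrays. Without that array the difference between the phases was -0.34 and no longer passed (adjusted p = 0.0438), whereas without the 5 arrays that deviate together, which leaves that array alone in its group, it was -0.95 (adjusted p = 1.22e-07). It also failed without replicate 1 (adjusted p = 0.0119) or replicate 2 (adjusted p = 0.0139) of the maximum CO2 group, in limma on the groups alone (adjusted p = 0.0715) and by the methods' t-test (adjusted p = 0.143). The fall against the reference failed without replicate 1 (adjusted p = 0.0106) or replicate 2 (adjusted p = 0.0121) of the maximum CO2 group or without reference replicate 2 (adjusted p = 0.0126), with differences between -0.62 and -0.57 over all single arrays left out.

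On C-limited arrays of the 3 *ino* strains *PAH1* lay between 6.30 and 6.65. Under N-limitation it read 6.49, 6.56 and 6.53 in *opi1*Δ, 6.65, 6.60 and 6.76 in *ino2*Δ, 6.73, 6.56 and 6.56 in *ino4*Δ and 6.48, 6.46 and 5.85 in *ino2*Δ*ino4*Δ, against 6.24, 6.50 and 6.77 in the reference. No N-limited mutant was separated from the reference arrays. In N-limited *ino2*Δ*ino4*Δ the difference was -0.24, with a 95% interval of -0.55 to 0.07. N-limited *opi1*Δ exceeded *opi1*Δ at maximum CO2 by 0.54 (adjusted p = 0.00528) and differed from it at minimum CO2 by -0.01. From highest to lowest group mean, *PAH1* ran from 6.67 in N-limited *ino2*Δ to 5.99 in *opi1*Δ at maximum CO2, and every neighbouring pair of groups in that order shared part of its range.

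Pah1 is phosphorylated by several kinases and becomes active at the endoplasmic reticulum and nuclear membrane when the Nem1-Spo7 complex removes phosphate from it. *NEM1* encodes the catalytic subunit and *SPO7* the regulatory subunit. Neither gene passed the threshold in any of the 19 comparisons by limma. Each reached an unadjusted p below 0.05 in 4 of them, and the lowest adjusted p was 0.0203 for *NEM1* and 0.0258 for *SPO7*.

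*NEM1* was most separated in N-limited *opi1*Δ. It read 6.97, 6.89 and 6.97 there, against 5.93, 6.63 and 6.68 on the N-limited reference arrays. The *opi1*Δ arrays were above all other group means and above every reference array, but reference replicate 1 lay far below the other two, and the difference of 0.53 ± 0.16 did not pass (adjusted p = 0.0589, 95% interval 0.20 to 0.85). In C-limited *opi1*Δ *NEM1* read 6.63, 6.61 and 6.62 at maximum CO2 and 6.37, 7.12 and 6.46 at minimum CO2, against 6.75, 6.73 and 6.86 in the reference. The maximum CO2 arrays were all just below the reference, by 0.16 on average, and those at minimum CO2 spread over both sides of it. The effect of the *opi1* deletion under N-limitation minus that under C-limitation was 0.66 ± 0.22 (adjusted p = 0.0403), and without minimum CO2 replicate 2 it was 0.89 and passed (adjusted p = 0.00141). Without that array N-limited *opi1*Δ also exceeded minimum CO2, by 0.53 (adjusted p = 0.00356).

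In *ino2*Δ*ino4*Δ *NEM1* read 6.23, 6.41 and 6.09 under N-limitation, against 6.63, 6.59 and 6.91 under C-limitation. The groups did not overlap, with a difference of -0.47 that did not pass (adjusted p = 0.0203). *SPO7* read 6.08, 6.85 and 5.90 in the N-limited *ino2*Δ*ino4*Δ strain, against 6.76, 6.82 and 6.80 under C-limitation. Here 1 N-limited array lay above all C-limited ones, and the difference of -0.52 did not pass (adjusted p = 0.0258). Without that array it was -0.80 and passed (adjusted p = 0.000296).

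The plots of each gene by array show the same arrays low in both subunit genes, N-limited reference replicate 1 and N-limited *ino2*Δ*ino4*Δ replicate 3. Over the 33 arrays *NEM1* and *SPO7* correlated with r = 0.67, the highest value among the 21 pairs of these genes (r = 0.61 over the 11 group means). The arrays share strains, limitations and the deviating arrays named above, so this value is a description only. Without the 5 arrays that deviate together *NEM1* was lower at maximum than at minimum CO2, with a difference of -0.50 (adjusted p = 0.000179). In that fit the minimum CO2 group is 1 array, assumed to vary like the other groups. The same fit gave *PAH1* 0.36 (adjusted p = 0.00906) and *NEM1* 0.34 (adjusted p = 0.00985) for minimum CO2 minus the reference, opposite in sign to -0.04 and -0.13 with all arrays.

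*APP1* encodes a Mg2+-dependent phosphatidate phosphatase of cortical actin patches, where endocytic vesicles form. It varied least of the 7 genes, with a span of 0.51 over all arrays. It read 6.75, 6.76 and 6.84 in *opi1*Δ at maximum CO2 and 7.02, 6.80 and 6.95 at minimum CO2, against 7.07, 7.17 and 7.02 in the C-limited reference. The maximum CO2 arrays all lay below the reference, with a difference of -0.30 ± 0.08 (adjusted p = 0.00261). The difference between the phases was -0.14, with a 95% interval of -0.30 to 0.02.

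Under N-limitation *APP1* read 6.92, 6.97 and 6.94 in *opi1*Δ, against 7.10, 7.09 and 7.09 in the reference. These groups did not overlap either, but the difference of -0.15 did not pass (adjusted p = 0.331, 95% interval -0.31 to 0.01). All other *APP1* differences lay between -0.16 and 0.15, but N-limited minus C-limited *ino4*Δ was 0.25 and passed without C-limited replicate 3 (adjusted p = 0.00999). The fall at maximum CO2 lost its call without replicate 1 (adjusted p = 0.0135) or replicate 2 (adjusted p = 0.0122) of that group or without reference replicate 2 (adjusted p = 0.0209), and by the methods' t-test (adjusted p = 0.0108).

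*DPP1* and *LPP1* encode the Mg2+-independent lipid phosphatases of the vacuole and the Golgi membrane, which accept phosphatidate, diacylglycerol pyrophosphate and lysophosphatidate. *DPP1* is known to be induced by the zinc-responsive activator Zap1 when zinc is scarce, and the repressor Gis1 acts on its promoter. It varied most of the 7 genes, by 2.29 over all arrays.

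*DPP1* was higher under N-limitation in 4 strains. In the reference strain it read 8.10, 8.94 and 9.15 under N-limitation, against 7.41, 7.46 and 7.60 under C-limitation. In *ino2*Δ it read 9.02, 8.99 and 9.10 under N-limitation, against 7.67, 7.62 and 7.64 under C-limitation. In *ino4*Δ it read 9.15, 9.10 and 9.04 under N-limitation, against 8.25, 8.27 and 7.81 under C-limitation. No N-limited array overlapped with the C-limited arrays of the same strain, although reference replicate 1 lay well below its group. The differences were 1.24 ± 0.20 in the reference (adjusted p = 2.78e-05), 1.40 ± 0.20 in *ino2*Δ (adjusted p = 6.12e-06) and 0.99 ± 0.20 in *ino4*Δ (adjusted p = 0.000426), or signals 2.36, 2.63 and 1.98 times as high.

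In *opi1*Δ *DPP1* read 8.68, 8.68 and 8.76 under N-limitation, against 6.89, 7.52 and 7.04 at minimum CO2. The difference was 1.56 ± 0.20 (adjusted p = 8.87e-07), 2.94 times the signal. At maximum CO2 it read 7.25, 7.27 and 7.29, within the range of the minimum CO2 arrays, and the phases differed by 0.12 (95% interval -0.30 to 0.53). The 4 rises were 0.84 to 1.56 without the 4 arrays whose *INO2* and *INO4* levels did not match the label. They were 0.99 to 1.55 without the 5 arrays that deviate together. The first of these fits leaves 1 C-limited *ino2*Δ array, and the second leaves 1 minimum CO2 array. In limma on the groups alone the rise in the reference did not pass (adjusted p = 0.0176). By the methods' t-test those in the reference (adjusted p = 0.0742), *opi1*Δ (adjusted p = 0.0143) and *ino4*Δ (adjusted p = 0.0222) did not pass.

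The *ino2*Δ*ino4*Δ strain did not have this rise. *DPP1* read 7.32, 7.71 and 6.86 under N-limitation, against 7.55, 7.86 and 7.89 under C-limitation. The groups overlapped, and the difference of -0.47 ± 0.20 did not pass (adjusted p = 0.0603). Without N-limited replicate 2 it was -0.68 and passed (adjusted p = 0.00864). Against the N-limited reference arrays, *ino2*Δ*ino4*Δ was lower, with a difference of -1.43 ± 0.20 (adjusted p = 5.88e-06), 0.371 times the signal, with every *ino2*Δ*ino4*Δ array below every reference array. Leaving out single arrays moved that difference between -1.75 and -1.21. Without the 5 deviating arrays, which leaves 1 array of N-limited *ino2*Δ*ino4*Δ, it was -1.33.

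The deletion of both genes thus had unlike effects under the limitations, and this was tested. Under N-limitation the effect was -1.43, under C-limitation it was 0.28 (95% interval -0.13 to 0.69), and the N-limited minus the C-limited effect was -1.71 ± 0.28 (adjusted p = 0.00012; 7.6% of all genes passed, and 1 of the 7 here). Single arrays left out moved it between -2.03 and -1.49. Without the 4 mismatched arrays it was -1.82 (adjusted p = 0.000162), and without the 5 deviating arrays, which leaves 1 array of N-limited *ino2*Δ*ino4*Δ, it was -1.61 (adjusted p = 1.56e-06). The fall and this difference did not pass where limma was fitted to the groups of the comparison alone (adjusted p = 0.0509 and 0.0135). Nor did the fall by the methods' t-test (adjusted p = 0.165). A pairwise test cannot take a difference of effects, and a plain linear model of its groups gave an adjusted p of 0.04. The SE of 0.20 for the fall rests on the spread of all 11 groups and was 0.33 on the groups alone. The *DPP1* SD was 0.56 in the N-limited reference and 0.43 in N-limited *ino2*Δ*ino4*Δ, against a median of 0.10 over the groups.

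For the single deletions, the N-limited *DPP1* values were close to those of N-limited reference replicates 2 and 3. *ino2*Δ differed from the N-limited reference by 0.31 (95% interval -0.10 to 0.72) and *ino4*Δ by 0.37 (95% interval -0.04 to 0.78). Under C-limitation *ino4*Δ arrays lay above all reference arrays, by 0.62, which did not pass with all arrays (adjusted p = 0.0247) and passed at 0.77 without *ino4*Δ replicate 3 (adjusted p = 0.00696). The *ino4* effect under N-limitation minus that under C-limitation was -0.25 with all arrays (adjusted p = 0.574), and it passed at -0.57 without the 5 deviating arrays (adjusted p = 0.00961). In the order of group means, 4 N-limited groups from 9.10 in *ino4*Δ to 8.71 in *opi1*Δ came first, and the step below them, 0.60, separated the arrays of the neighbouring groups. The other step without overlap lay between C-limited *ino2*Δ and the C-limited reference, at 0.15, and the lowest mean was 7.15 in *opi1*Δ at minimum CO2.

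**Figure D3:**
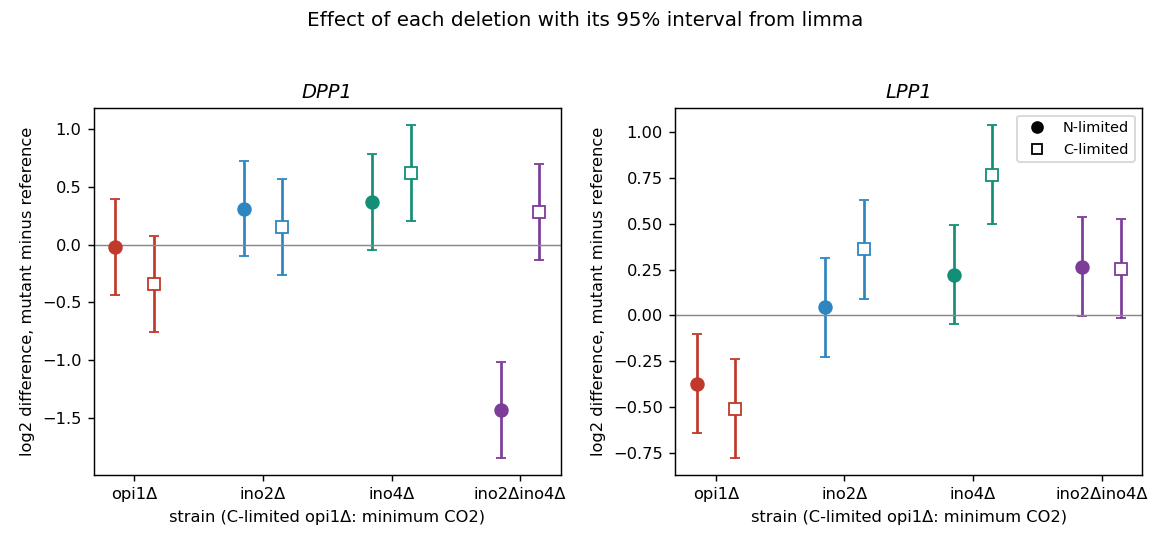
Log2 difference of each deletion strain from the reference of the same limitation for *DPP1* and *LPP1*, with 95% intervals from limma (3 arrays per group). Filled circles are N-limited and open squares C-limited, and the C-limited *opi1*Δ group is that at minimum CO2. For *DPP1* the *ino2*Δ*ino4*Δ effect is -1.43 under N-limitation and 0.28 under C-limitation, and for *LPP1* the *ino4*Δ effect is 0.22 under N-limitation and 0.77 under C-limitation.

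*LPP1* was highest on C-limited arrays of the *ino* strains and lowest in *opi1*Δ. In C-limited *ino4*Δ it read 7.42, 7.49 and 6.86, against 6.43, 6.41 and 6.62 in the reference. All *ino4*Δ arrays were above the reference, with a difference of 0.77 ± 0.13 (adjusted p = 0.000292), 1.70 times the signal. It did not pass in limma on the groups alone (adjusted p = 0.0503) or by the methods' t-test (adjusted p = 0.127). In *ino2*Δ it read 6.68, 6.96 and 6.91, again above all reference arrays, and the difference of 0.36 did not pass (adjusted p = 0.171). In *ino2*Δ*ino4*Δ it read 6.51, 6.89 and 6.83, of which 1 array lay within the reference range, and the difference was 0.25 (95% interval -0.01 to 0.52).

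These are the groups in which *INO2* and *INO4* levels did not always match the label, so the arrays are given with those levels. *LPP1* was 7.42 and 7.49 on *ino4*Δ replicates 1 and 2, where *INO4* was at background and *INO2* read 6.34 and 6.18. It was 6.86 on *ino4*Δ replicate 3, where both genes were at background. It was 6.96 and 6.91 on *ino2*Δ replicates 2 and 3 and 6.89 and 6.83 on *ino2*Δ*ino4*Δ replicates 2 and 3, where both were at background as well. It was 6.68 on *ino2*Δ replicate 1 and 6.51 on *ino2*Δ*ino4*Δ replicate 1, where *INO2* was at background and *INO4* read 6.53 and 6.64. The arrays with *INO4* present thus held the lowest *LPP1* values among these 9, and *ino4*Δ replicates 1 and 2 the highest. Without the 4 mismatched arrays the *ino4*Δ difference was 0.96 (adjusted p = 2.66e-07).

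Under N-limitation *LPP1* read 6.24, 6.33 and 6.37 in *ino2*Δ, 6.54, 6.51 and 6.42 in *ino4*Δ and 6.51, 6.54 and 6.56 in *ino2*Δ*ino4*Δ, against 6.26, 6.23 and 6.31 in the reference. The *ino4*Δ and *ino2*Δ*ino4*Δ arrays lay above all reference arrays by 0.22 and 0.26, and neither difference passed (adjusted p = 0.465 and 0.145). Between the limitations *LPP1* was lower under N-limitation in both single mutants. The difference was -0.77 ± 0.13 in *ino4*Δ (adjusted p = 6.14e-05) and -0.54 ± 0.13 (adjusted p = 0.00248) for the *ino2*Δ strain. The *ino4*Δ fall did not pass in limma on the groups alone (adjusted p = 0.0201) or by the methods' t-test (adjusted p = 0.0661), nor did the *ino2*Δ fall by the t-test (adjusted p = 0.0157). Without the 4 mismatched arrays the *ino4*Δ difference was -0.96 (adjusted p = 1.78e-07). In the reference strain the difference was -0.22, with a 95% interval of -0.49 to 0.05. The *ino2*Δ fall lost its call without the 4 mismatched arrays (-0.37, adjusted p = 0.0562), a fit that leaves 1 C-limited *ino2*Δ array. It also lost it when C-limited replicate 2 (adjusted p = 0.0176), C-limited replicate 3 (adjusted p = 0.0141) or N-limited replicate 1 (adjusted p = 0.0145) was left out.

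Whether the *ino4* deletion acted differently on *LPP1* under the limitations depended on 1 array. Of the 7 genes 0 passed for this test by limma, against 3.43% of all genes, with 1 of the 7 at an unadjusted p below 0.05, and 0 passed by the plain linear model. That gene was *LPP1*, whose N-limited minus C-limited effect was -0.54 (adjusted p = 0.0475). Without C-limited *ino4*Δ replicate 3, on which *INO2* was at background, it was -0.74 and passed (adjusted p = 0.00108). It also passed at -0.74 without the 4 mismatched arrays (adjusted p = 0.000377).

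In *opi1*Δ *LPP1* read 5.95, 5.76 and 5.98 under N-limitation, below the N-limited reference arrays by 0.37. That difference did not pass (adjusted p = 0.13). At minimum CO2 it read 6.22, 5.75 and 5.98, below all C-limited reference arrays, with a difference of -0.51 ± 0.13 (adjusted p = 0.00941). At maximum CO2 it read 6.37, 6.21 and 6.15, also below all reference arrays, by 0.25 (adjusted p = 0.128). The call at minimum CO2 is fragile. It was lost under 11 of 17 other settings, among them array centring (adjusted p = 0.0118), quantile normalisation (adjusted p = 0.0368) and leaving out any 1 of the reference arrays (adjusted p between 0.0209 and 0.05) or minimum CO2 replicate 2 (adjusted p = 0.0258) or 3 (adjusted p = 0.0267), while the sign was negative under all 17. Without the 5 deviating arrays, which leaves minimum CO2 replicate 2 alone in its group, the difference was -0.74. That array held the lowest *LPP1* value of its group, 5.75, and leaving it out instead gave -0.39.

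Over the 33 arrays *LPP1* correlated negatively with *INO1*, the inositol-3-phosphate synthase gene that Ino2-Ino4 activates (r = -0.68, and r = -0.72 over the 11 group means). Within the reference and each *ino* strain, however, both group means were lower under N-limitation. In the reference *INO1* was 7.54 against 9.83 and *LPP1* 6.27 against 6.49. In *opi1*Δ *INO1* was higher under N-limitation than at minimum CO2 (12.23 against 11.88), and *LPP1* was lower (5.90 against 5.98). *INO1* was chosen after its values were seen, and both genes share the strains and limitations. Among group means of *LPP1*, the step without overlap lay below the C-limited reference, at 0.18, with C-limited *ino4*Δ highest at 7.26 and N-limited *opi1*Δ lowest at 5.90.

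*DGK1* encodes the CTP-dependent diacylglycerol kinase of the endoplasmic reticulum, which turns diacylglycerol back into phosphatidate and so opposes Pah1. It was high in *opi1*Δ at maximum CO2. It read 8.11, 8.03 and 8.08 there and 7.30, 7.12 and 7.48 at minimum CO2, against 7.44, 7.42 and 7.57 in the C-limited reference. The maximum CO2 arrays lay above all others of *opi1*Δ and above the reference. *DGK1* at maximum CO2 exceeded minimum CO2 by 0.77 ± 0.15 (adjusted p = 9.12e-05) and the reference by 0.60 ± 0.15 (adjusted p = 0.00195), 1.71 and 1.51 times the signal.

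The *DGK1* group mean at maximum CO2, 8.07, was the highest of the 11, the minimum CO2 mean of 7.30 was the lowest, and the step from the highest to the next was the one without overlap. The rise between the phases was 0.68 to 0.86 when single arrays were left out and kept its call each time, and without the 5 deviating arrays it was 0.96 (adjusted p = 2.72e-07), but it did not pass by the methods' t-test (adjusted p = 0.0133). That against the reference lost it narrowly without reference replicate 2 (0.57, adjusted p = 0.0101). At minimum CO2 *DGK1* differed from the reference by -0.18 (95% interval -0.48 to 0.13). *PAH1* and *DGK1* thus passed the test in opposite directions in both comparisons of the maximum CO2 arrays, which share those 3 arrays.

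Under N-limitation *DGK1* read 7.98, 7.73 and 7.97 in *opi1*Δ, 7.82, 7.78 and 7.87 in *ino2*Δ, 8.0, 7.89 and 7.86 in *ino4*Δ and 7.91, 8.05 and 7.30 in *ino2*Δ*ino4*Δ, against 7.50, 7.96 and 8.15 in the reference. All 4 mutants lay within the reference range but for 1 *ino2*Δ*ino4*Δ array. N-limited *opi1*Δ exceeded *opi1*Δ at minimum CO2 by 0.60 ± 0.15 (adjusted p = 0.00222), a call lost without minimum CO2 replicate 2 (adjusted p = 0.0116) or N-limited replicate 1 (adjusted p = 0.0134) or 3 (adjusted p = 0.013), in limma on the groups alone (adjusted p = 0.0224) and by the methods' t-test (adjusted p = 0.0524). Without the 5 deviating arrays, which leaves minimum CO2 replicate 2 alone in its group, it was 0.78. Against *opi1*Δ at maximum CO2 the difference was -0.18 (adjusted p = 0.354). In the reference strain N-limitation minus C-limitation was 0.40 (adjusted p = 0.039), and it passed at 0.58 without the low N-limited reference replicate 1 (adjusted p = 0.00339).

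The remaining tests of whether a deletion acted differently between the limitations gave 0 calls among the 7 by limma. For *opi1*Δ 4.73% of all genes passed and 2 of the 7, *NEM1* and *SPO7*, had an unadjusted p below 0.05. For *ino2*Δ 0.514% of all genes passed and 0 of the 7 had such a p. The plain linear model called 0 of the 7 in both.

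The enzymes on either side of these genes were counted from lists of 7 genes that make phosphatidate, 2 other genes that use it, 4 that use diacylglycerol, 12 measured kinases and partners of Pah1, and 8 transcription factors tied to these genes or to UASINO. In *opi1*Δ at maximum CO2 against the reference, 1 of 7 phosphatidate makers rose and 3 fell, where 31.1% of all genes were called. *AYR1*, the 1-acyl-dihydroxyacetone-phosphate reductase, fell by 1.83, *GPT2*, a glycerol-3-phosphate acyltransferase, fell by 1.30, *SPO14*, the phospholipase D, fell by 0.57, and *LOA1*, a lysophosphatidate acyltransferase, rose by 0.48. *CDS1*, the CDP-diacylglycerol synthase, rose by 1.39. Of the 4 diacylglycerol users 3 rose, the ethanolamine- and cholinephosphotransferases *EPT1* by 1.05 and *CPT1* by 0.81 and the acyltransferase *LRO1* by 0.56. Among the kinase genes the protein kinase A subunits *TPK3* rose by 0.91, *TPK2* fell by 1.34 and *BCY1* fell by 1.02, and the casein kinase 2 subunit *CKB1* rose by 0.37. Besides the deleted *OPI1*, the transcription factor gene *RPH1* fell, by 0.53.

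At maximum against minimum CO2, where 45.4% of all genes were called, 1 of 7 makers rose (*SLC1*, 1.0) and 4 fell, led by *AYR1* (-2.09) and *GPT2* (-1.76). Both other users of phosphatidate rose, *CDS1* by 1.14 and the mitochondrial CDP-diacylglycerol synthase *TAM41* by 0.67, and 1 of 4 diacylglycerol users rose, *EPT1* by 0.76. Of the 12 kinase and partner genes 4 rose, with *CKA2* (1.1) and *TPK3* (1.09) first, and *TPK2* fell by 0.90. *GIS1* fell by 0.51. At minimum CO2 against the reference the calls in the 4 enzyme and kinase lists were *CPT1*, up by 0.83, and *TAM41*, down by 0.70. In N-limited *opi1*Δ they were *CDS1*, up by 1.53, and *EPT1*, up by 0.74.

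In N-limited *ino2*Δ*ino4*Δ, where *DPP1* fell and 16.1% of all genes were called, 1 of 7 makers rose (*SCT1*, 0.42) and 1 fell (*AYR1*, -0.96), and 2 of 4 diacylglycerol users fell (*CPT1*, -0.41, and *EPT1*, -0.39). The repressor gene *GIS1* fell by 0.43 (adjusted p = 0.00602), with an N-limited minus C-limited effect of -0.76 (adjusted p = 0.00167). The other transcription factor genes called there were the deleted *INO2* and *INO4*, and *OPI1*, which fell by 0.82. *ZAP1* was not called in any comparison of a mutant with its reference. In C-limited *ino4*Δ, where *LPP1* rose, *LOA1* rose by 0.52, *SCT1* by 0.42, and *CDS1* fell by 1.12.

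Between N- and C-limitation in the reference strain, *LRO1* (0.88), *LOA1* (0.62) and *EPT1* (0.51) rose, and *AYR1* (-1.07), *BCY1* (-1.01) and *TAM41* (-0.50) fell. *ZAP1* rose with N-limitation in *opi1*Δ against minimum CO2 (0.55, adjusted p = 0.00194) and in *ino4*Δ (0.49, adjusted p = 0.0062). In the reference strain, where *DPP1* rose by 1.24, 0 of the 8 transcription factor genes passed, *ZAP1* among them (23.3% of all genes passed). The part of *ZAP1* in the *DPP1* values was not tested. *REB1*, which encodes a factor that activates *DGK1*, rose with N-limitation in *ino2*Δ (0.74), where *DGK1* differed by 0.10 (95% interval -0.20 to 0.40).

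The genes with the most similar profiles were found by Pearson's r over the 33 arrays among 5160 other genes above background, as a description of arrays that share strains and limitations. *DPP1* had the closest matches, *ECM38*, *YSP3* and *LSB5*, each with r = 0.97, and r between 0.98 and 0.99 over the 11 group means. *SPO7* followed with *RHO1* (r = 0.95), *SNF8* and *TAL1* (0.93 each). *LPP1* was most like *HBN1* (0.92), *DGK1* most like *ERD1* and *NSG1* (0.92 each), and *PAH1* most like *CDC53* (0.90). The best match of *NEM1* was *ATG3* (0.86) and that of *APP1* was *RAD50* (0.79). None of these nearest genes was another of the 7.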

How the data were processed

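Per the labels and the study's methods, total RNA of chemostat samples was hybridised to Affymetrix yeast arrays, and the authors deposited 1 log2 value per probe set after a joint PLIER normalisation (its version is not given in the sources used here). The 33 deposited columns were mapped to samples by their titles and were not normalised further (array medians 7.14 to 7.44). Of 10928 probe sets, 5498 paired with 1 *S. cerevisiae* gene by symbol, and for 47 genes with several probe sets the one with the highest mean was kept, which gave 5449 genes. The background level, 5.47, is the 95th percentile of 1746 probe sets of genes outside *S. cerevisiae*, and 288 genes with a mean below it stayed in the tests. A linear model with a mean for each group was fitted to all arrays by lmFit and moderated by eBayes (limma 3.58.1, R 4.3.3), which leaves 22 residual degrees of freedom, and the code was checked on simulated data. Python 3.11.15 was used for tables and figures. The alternatives tried are in the closing section. In 0 of 15 comparisons did the deviations of all same-numbered pairs correlate above 0.1, so numbers were not used as pairs. Single pairs did correlate, and for N-limited *ino2*Δ*ino4*Δ and the reference r ran from -0.76 to 0.69. The 7 genes, all of which are described, and the gene lists were chosen with earlier results of these data known. Genes of those lists are named where they passed, up to 4 per list and comparison. The authors' array images were not analysed here, and 1 item is not reported here.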

Additional observations from a re-analysis of the deposited data

Results flagged for a closer look

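*DPP1* had an effect of the *ino2*Δ*ino4*Δ deletion that differed between the limitations by a test of that difference itself. The N-limited minus the C-limited effect was -1.71 ± 0.28 (limma, adjusted p = 0.00012), with -1.43 under N-limitation and 0.28 under C-limitation. All 3 N-limited *ino2*Δ*ino4*Δ arrays were below all 3 N-limited reference arrays, and the difference was negative each time a single array was left out. It did not pass in limma on the groups of the comparison alone (adjusted p = 0.0135) or by a plain linear model of them (adjusted p = 0.04).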

How the results depend on the processing

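Of 280 values of the 16 differences that passed, recomputed under other settings, 232 stayed on the same side of the threshold, 47 no longer passed and 1 changed sign: N-limited *opi1*Δ minus C-limited *opi1*Δ for *DGK1* was -0.18 with the maximum CO2 phase as the C-limited group, against 0.60 with the minimum CO2 phase, and *PAH1* gave 0.54 in place of -0.01 there. Calls among the 7 genes numbered 5 for C-limited mutants, 1 for N-limited mutants, 7 between the limitations, 2 between the *opi1*Δ phases and 1 for differences of effects. The methods' t-test gave 2, 0, 1, 0 and 0 (10, 5, 12, 1 and 3 at an unadjusted p below 0.05). For differences of effects its place was taken by the plain linear model. Fitting limma to the groups of a comparison alone gave 4, 0, 4, 1 and 0 (13, 5, 12, 3 and 3 at an unadjusted p below 0.05). That fit has fewer arrays to estimate the spread and takes it from those groups only. Of its 4 calls for C-limited mutants, 3 were also calls with all arrays. The other was *DPP1*, lower at maximum CO2 than in the reference (-0.22, adjusted p = 0.00711, against 0.395 with all arrays). A threshold of 0.001 gave 1 for C-limited mutants and 1 between the phases, and one of 0.05 gave 3 for differences of effects. With single arrays left out the counts ran from 1 to 6, 1 to 1, 6 to 10, 1 to 2 and 1 to 2. The count for C-limited mutants fell to 1 without reference replicate 2 and to 2 without maximum CO2 replicate 1 or 2. Without the 4 mismatched arrays, a setting chosen after seeing the data, differences of effects gave 2. Without the 5 deviating arrays, also chosen after seeing the data, the counts were 8 for C-limited mutants, 11 between the limitations and 2 for differences of effects. With the replicate block the counts were 4, 1, 7, 2 and 1, and the call it removed was *LPP1* at minimum CO2 (adjusted p = 0.0123). Median centring moved the share of higher genes among all calls from 42% to 62.8% at minimum CO2 against the reference and from 67.2% to 55.1% for N-limited *opi1*Δ against minimum CO2. The cause of these changes was not tested.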
